A study of Mus musculus with 16 samples.

Results

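The genes described here are 50 cell cycle and DNA replication genes, listed by their function. They comprise 7 genes of the G1 phase (cyclins and kinases that commit a cell to division), 4 cell cycle transcription factors, 15 genes of S phase (licensing of replication origins, the replicative helicase and the supply of deoxynucleotides) and 24 genes of G2 and mitosis. All 50 had at least 1 named probe that was well above background on all 16 arrays, so none was lost to the filter on dim probes, and they were tested among 15394 genes in all. The study asked how meflin, a cell surface protein of mesenchymal cells encoded by Islr, bears on the response of lung fibroblasts to TGF-β1. Primary fibroblasts were obtained by enzymatic digestion from lungs of female mice aged 8 weeks, either wild type C57BL/6J or Meflin knockout, and their RNA was hybridised to one-colour Agilent arrays.

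The 4 groups, of 4 arrays each, were wild type vehicle, wild type TGF-β1, knockout vehicle and knockout TGF-β1; recombinant TGF-β1 was given at 5 ng/ml for 48 h. All groups share sex, age, organ and culture. The construct of the deletion and the strain background of the knockout mice are not given in the sources used here, nor is the number of mice behind a culture. The deposit calls the 4 arrays of a group independent experiments; where cultures or mice were shared is not stated, so each p-value measures only the spread between these arrays. Each of 2 slides carried 2 arrays of every group.

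Cells enter division when D-type cyclins with CDK4 or CDK6, and then cyclin E with CDK2, phosphorylate the retinoblastoma protein and free E2F factors to switch on S phase genes. A later set of genes for G2 and mitosis is switched on by the MuvB complex with B-MYB and then FOXM1, while in resting cells the DREAM complex holds both sets down. TGF-β is best known for arresting epithelial cells in G1 through CDK inhibitors, whereas fibroblasts can divide in response to it.

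All levels below are log2 signals after the 75th percentile of every array was set to 1 common value, and all differences are differences of such means (log2, ± SE from limma). A gene is said to have risen or fallen where limma's adjusted p (Benjamini-Hochberg, over all 15394 genes) was under 0.05. Levels of different genes come from different probes and are not compared with each other. Islr, the targeted gene, read 10.82 ± 0.06 in wild type vehicle and 8.34 ± 0.08 in wild type TGF-β1 cultures (SD, n = 4), and on all 8 knockout arrays its probe failed the test for signal above background (1.45 ± 0.16 and 1.76 ± 0.07). The 75th percentile intensity was 469.6 to 525.6 in vehicle cultures. With TGF-β1 it was 428.6 to 452.1 in wild type and 382.1 to 445.9 in knockout cells, so the scaling correction itself differs between the groups. The fibroblast markers were bright in every group, with a summed signal of 534000 to 643000 over 10 of 10 genes, although single markers moved. In wild type cells 6 rose and 4 fell with TGF-β1. In knockout cells 5 rose, the furthest by 1.79, and 5 fell, among them Pdgfra (-2.21), Lum (-2.09) and Dcn (-1.52). The summed signal of 15 of 16 macrophage and leukocyte markers was 175000 to 202000 in wild type vehicle, 106000 to 114000 in wild type TGF-β1, 148000 to 153000 in knockout vehicle and 78700 to 86800 in knockout TGF-β1 cultures. Over 12 of 12 endothelial markers the sums were 11900 to 12300, 7770 to 8250, 11000 to 11400 and 6360 to 6790 in the same order. Over 7 of 8 mesothelial markers they were 29900 to 31400, 26500 to 27500, 27100 to 27400 and 12900 to 14700. With TGF-β1, 1 macrophage and leukocyte marker rose and 11 fell in wild type cells, and 2 rose and 12 fell in knockout cells. Endothelial markers numbered 1 risen and 10 fallen in wild type and 2 and 10 in knockout cells. Mesothelial markers numbered 2 risen and 4 fallen in wild type and 0 and 6 in knockout cells. Epithelial sums (9 of 12 genes) were 8980 to 9750, 11700 to 12600, 8030 to 8430 and 12200 to 13500. In wild type cells the epithelial sum was higher with TGF-β1 although the median of its genes was -0.82. There Cdh1, Krt18 and Krt8 rose (0.98, 0.78 and 0.72) while 4 fell by at least 2-fold, Sftpc furthest (-4.80). In knockout cells 4 rose and 3 fell, with a median of 0.12. Epcam, Sftpa1 and Nkx2-1 were not above background in any group. Pericyte and smooth muscle sums (10 of 10 genes) were 22000 to 23600, 24400 to 27000, 24200 to 26200 and 25800 to 27500, with 4 rising and 4 falling in wild type and 5 rising and 4 falling in knockout cells. These sums move with treatment and genotype alongside the genes below, and their part in the results was not tested. In RNA from a whole culture, fewer cells of a type and less RNA per cell cannot be told apart. A higher level of a mitotic gene can likewise come from more dividing cells or from more transcript in each.

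Most of the 50 genes were higher after TGF-β1 in both genotypes, G2 and mitotic genes by the widest margin, while cyclin D1 and the licensing factor Cdt1 were lower. In wild type cells 42 genes rose, 2 fell and 6 passed in neither direction, with a median difference of 0.43; over all genes tested 41.3% rose and 27.3% fell, with a median of 0.08. In knockout cells the counts were also 42, 2 and 6, with a median of 0.57, against 46.6% risen, 35.9% fallen and a median of 0.10 over all genes. Rises of at least 2-fold were fewer: 3 genes in wild type cells (Kif20a, Aurka and Plk1) and 13 in knockout cells, where 3.26% and 9.58% of all genes rose as far. The 4 TGF-β1 arrays all lay above the 4 vehicle arrays for 40 genes in wild type and 41 in knockout cells, against 38.0% and 43.9% of all genes. Both slides gave nearly the same counts: 40 genes rose in wild type cells within slide 1 and 40 within slide 2, and 42 with slide as a block; in knockout cells the counts were 42, 43 and 43.

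**Figure D1:**
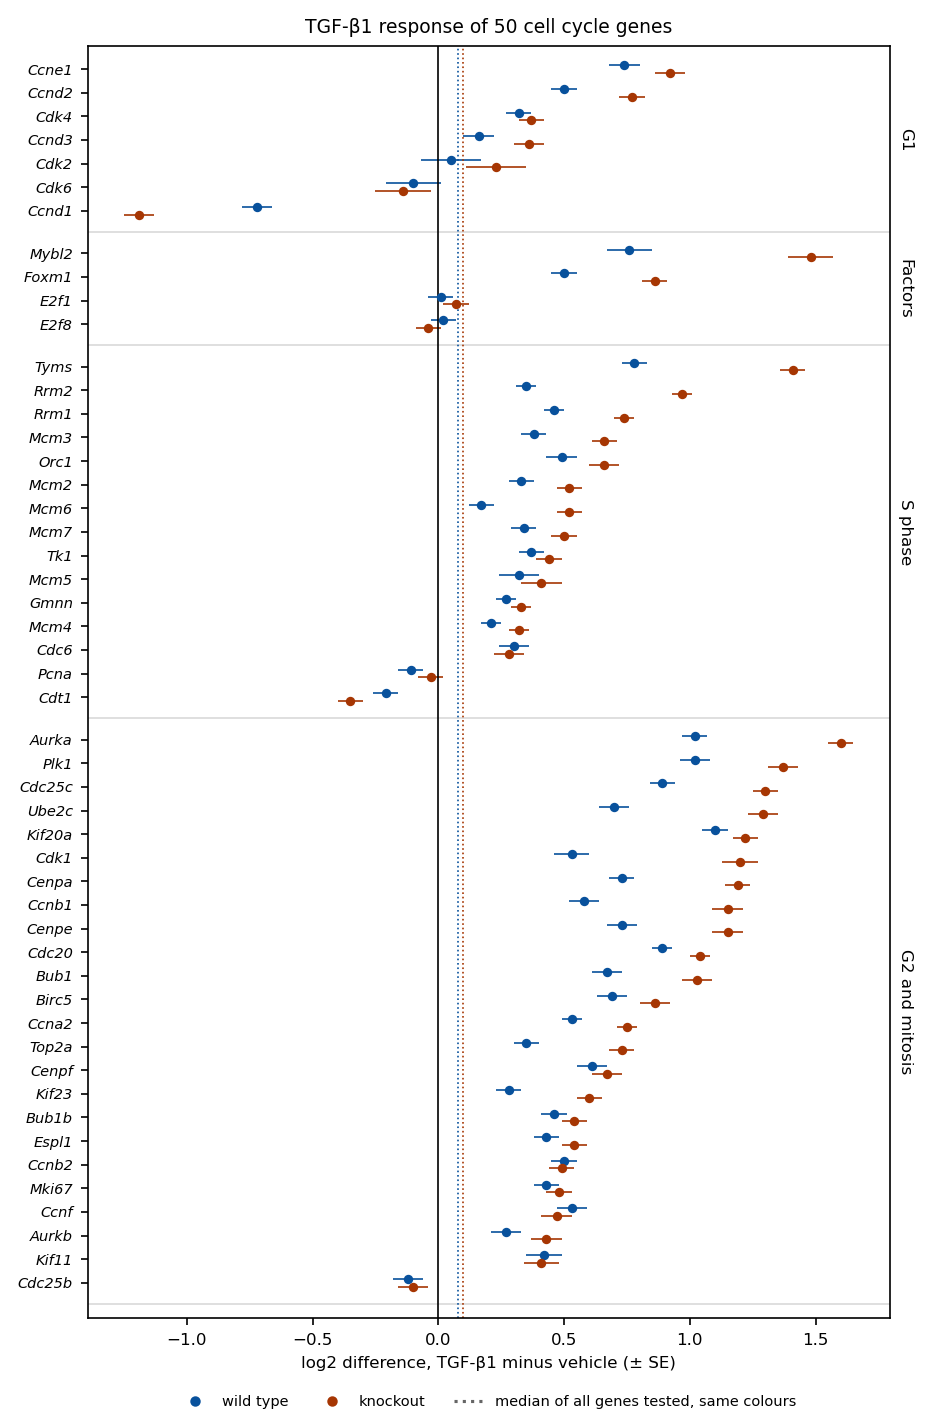
TGF-β1 minus vehicle (log2 difference, points, with SE as bars) for each of the 50 genes in wild type (blue) and knockout (brown) cells, by role; dotted lines mark the median of all genes tested, 0.08 and 0.10. Nearly all G2 and mitotic genes lie right of both medians, from 0.27 to 1.10 in wild type cells apart from Cdc25b, while Ccnd1 lies far to the left in both genotypes.

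Among the 7 G1 genes, 4 rose, 1 fell and 2 passed in neither direction in each genotype (median 0.16 in wild type and 0.36 in knockout cells), so the D-type cyclins did not move together. Ccnd1, encoding cyclin D1, which carries growth factor signals to CDK4 and CDK6, read 11.90, 12.05, 12.13 and 11.95 in wild type vehicle and 11.26, 11.31, 11.34 and 11.22 in wild type TGF-β1 cultures. In knockout cells Ccnd1 read 11.88, 11.99, 11.89 and 11.96 in vehicle and 10.64, 10.81, 10.85 and 10.66 in TGF-β1 cultures. The vehicle arrays of both genotypes overlapped, every TGF-β1 array was below every vehicle array, and the knockout TGF-β1 arrays were the lowest of all. Ccnd1 fell by 0.72 ± 0.06 in wild type (1.65-fold lower, adjusted p = 3.94e-08) and by 1.19 ± 0.06 in knockout cells (2.28-fold lower, adjusted p = 4e-11), and the fall was deeper in knockout cells by an interaction of -0.47 ± 0.08 (adjusted p = 0.000207).

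Ccnd2, encoding cyclin D2, another partner of CDK4 and CDK6, went the other way. It read 14.93, 14.79, 14.92 and 14.92 in wild type vehicle and 15.27, 15.42, 15.40 and 15.46 in wild type TGF-β1 cultures. In knockout cells Ccnd2 read 14.94, 15.03, 15.09 and 15.06 in vehicle and 15.73, 15.80, 15.82 and 15.85 in TGF-β1 cultures. The 4 groups did not overlap, with wild type vehicle lowest and knockout TGF-β1 highest. The rise was 0.50 ± 0.05 in wild type (adjusted p = 3.83e-07) and 0.77 ± 0.05 in knockout cells (adjusted p = 1.04e-09), and the interaction of 0.27 ± 0.07 (adjusted p = 0.00425) was -0.01 under quantile normalization, so its excess in knockout cells depends on the scaling.

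Ccne1, encoding cyclin E1, the CDK2 partner at S phase entry, read 11.11, 11.08, 11.09 and 11.07 in wild type vehicle and 11.76, 11.87, 11.88 and 11.80 in wild type TGF-β1 cultures. In knockout cells Ccne1 read 11.20, 11.36, 11.37 and 11.46 in vehicle and 12.13, 12.33, 12.37 and 12.26 in TGF-β1 cultures. Again no 2 groups overlapped. The rise was 0.74 ± 0.06 in wild type (1.67-fold, adjusted p = 2.65e-08) and 0.92 ± 0.06 in knockout cells (1.90-fold, adjusted p = 6.88e-10), and the interaction of 0.18 ± 0.08 did not pass (adjusted p = 0.0645). Cdk4, the kinase of the D-type cyclins, rose by 0.32 ± 0.05 and 0.37 ± 0.05, and Ccnd3 (cyclin D3) by 0.16 ± 0.06 and 0.36 ± 0.06, in wild type and knockout cells; under quantile normalization Cdk4 was -0.16 in knockout cells and Ccnd3 was -0.04 and -0.09, so neither direction holds across scalings. The wild type rise of Ccnd3 (adjusted p = 0.0242) was also lost without any 1 of 4 wild type arrays (vehicle replicate 1 or 2, TGF-β1 replicate 3 or 4). Cdk2 (0.05 ± 0.12 and 0.23 ± 0.12) and Cdk6 (-0.10 ± 0.11 and -0.14 ± 0.11) did not pass in either genotype, with the largest SEs of the 50 genes. The Cdk2 rise in knockout cells did pass with the slide (adjusted p = 0.0407) or the replicate number (0.0493) as a block, under quantile normalization (0.0297) or normexp (0.0228), within slide 2 (0.000416), and without knockout vehicle replicate 1 (0.00707) or wild type TGF-β1 replicate 1 (0.0488).

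**Figure D2:**
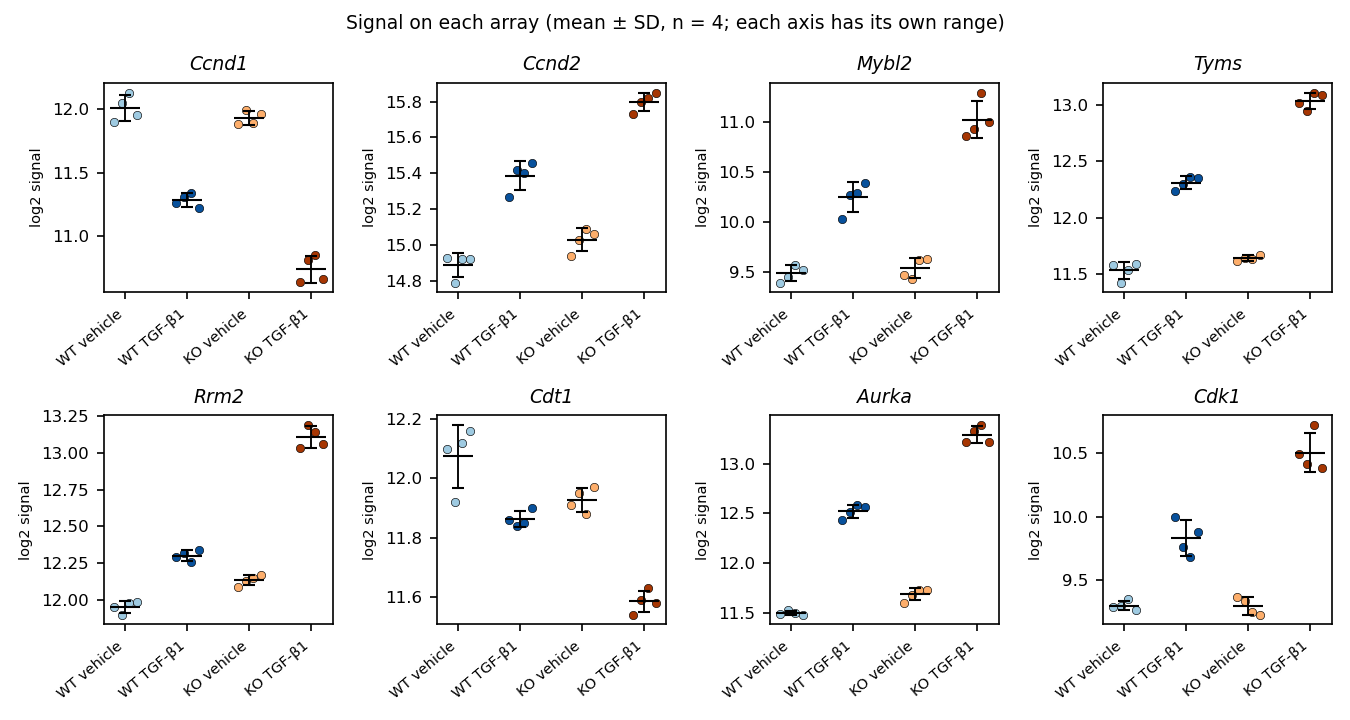
Log2 signal of 8 genes on each of the 16 arrays (points), with the mean and SD of each group of 4 arrays (bars); each panel has its own axis range. Ccnd1 and Cdt1 are lowest, and the other 6 genes highest, on the knockout TGF-β1 arrays.

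Of the 4 cell cycle transcription factors, Mybl2 and Foxm1 rose in both genotypes and E2f1 and E2f8 did not pass in either. Mybl2, encoding B-MYB, which works with the MuvB core at G2 and mitotic promoters, read 9.39, 9.45, 9.57 and 9.52 in wild type vehicle and 10.03, 10.27, 10.29 and 10.39 in wild type TGF-β1 cultures. In knockout cells Mybl2 read 9.47, 9.43, 9.62 and 9.63 in vehicle and 10.86, 10.93, 11.29 and 11.00 in TGF-β1 cultures. The vehicle groups overlapped and the 2 TGF-β1 groups stood apart from them and from each other. Mybl2 rose by 0.76 ± 0.09 in wild type (1.70-fold, adjusted p = 3.27e-06) and by 1.48 ± 0.09 in knockout cells (2.80-fold, adjusted p = 6.56e-10). Its interaction, 0.72 ± 0.13 (adjusted p = 0.000237), was the largest of the 50 genes, and was 0.72 within slide 1, 0.73 within slide 2 and 0.61 under quantile normalization.

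Foxm1, the forkhead factor that follows B-MYB at mitotic promoters, read 10.09, 10.00, 10.03 and 10.10 in wild type vehicle and 10.46, 10.60, 10.65 and 10.52 in wild type TGF-β1 cultures. In knockout cells Foxm1 read 10.10, 10.08, 10.13 and 10.14 in vehicle and 10.87, 11.11, 11.02 and 10.90 in TGF-β1 cultures. Its pattern over the groups was that of Mybl2, with smaller steps. It rose by 0.50 ± 0.05 in wild type and 0.86 ± 0.05 in knockout cells, with an interaction of 0.36 ± 0.08 (adjusted p = 0.000957). E2f1, the activating E2F released by the retinoblastoma protein, read 10.14, 10.20, 10.18 and 10.13 in wild type vehicle and 10.09, 10.22, 10.22 and 10.16 in wild type TGF-β1 cultures. In knockout cells E2f1 read 10.06, 10.14, 10.16 and 10.22 in vehicle and 10.15, 10.14, 10.26 and 10.29 in TGF-β1 cultures. All 4 groups overlapped, and the differences were 0.01 ± 0.05 (adjusted p = 0.864) and 0.07 ± 0.05 (adjusted p = 0.174). E2f8, a repressing E2F, differed by 0.02 ± 0.05 and -0.04 ± 0.05, and passed in knockout cells only when knockout TGF-β1 replicate 2 was left out.

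Of the 15 S phase genes, 13 rose, Cdt1 fell and Pcna did not pass in each genotype, with a median of 0.33 in wild type and 0.50 in knockout cells. Tyms had the largest rise of this group in both genotypes, followed in knockout cells by Rrm2 and Rrm1. Tyms, thymidylate synthase, read 11.58, 11.42, 11.53 and 11.59 in wild type vehicle and 12.24, 12.30, 12.36 and 12.35 in wild type TGF-β1 cultures. In knockout cells Tyms read 11.61, 11.64, 11.63 and 11.67 in vehicle and 13.02, 12.95, 13.11 and 13.09 in TGF-β1 cultures. No 2 groups overlapped, although the vehicle groups nearly touched. Tyms rose by 0.78 ± 0.05 in wild type (1.72-fold, adjusted p = 1.16e-09) and by 1.41 ± 0.05 in knockout cells (2.65-fold, adjusted p = 3.52e-13), an interaction of 0.63 ± 0.07 (adjusted p = 1.2e-06).

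Rrm2, the regulated small subunit of ribonucleotide reductase, read 11.95, 11.90, 11.98 and 11.99 in wild type vehicle and 12.29, 12.32, 12.26 and 12.34 in wild type TGF-β1 cultures. In knockout cells Rrm2 read 12.09, 12.13, 12.15 and 12.17 in vehicle and 13.03, 13.19, 13.14 and 13.06 in TGF-β1 cultures. The groups did not overlap, and the knockout TGF-β1 arrays stood far above the other 3 groups, which lay close together. The rise was 0.35 ± 0.04 in wild type and 0.97 ± 0.04 in knockout cells, an interaction of 0.62 ± 0.05 (adjusted p = 2.06e-07). Rrm1, the large subunit of the same enzyme, read 11.42, 11.39, 11.47 and 11.52 in wild type vehicle and 11.89, 11.82, 11.96 and 11.97 in wild type TGF-β1 cultures. In knockout cells Rrm1 read 11.56, 11.49, 11.55 and 11.58 in vehicle and 12.22, 12.28, 12.35 and 12.29 in TGF-β1 cultures. The vehicle groups overlapped and the TGF-β1 groups did not overlap with them or with each other. Rrm1 rose by 0.46 ± 0.04 and 0.74 ± 0.04, an interaction of 0.28 ± 0.06 (adjusted p = 0.00108), so the small subunit moved by less than the large one in wild type cells and by more in knockout cells.

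Cdt1, which loads the MCM helicase onto origins, read 12.10, 11.92, 12.12 and 12.16 in wild type vehicle and 11.86, 11.84, 11.85 and 11.90 in wild type TGF-β1 cultures. In knockout cells Cdt1 read 11.91, 11.95, 11.88 and 11.97 in vehicle and 11.54, 11.59, 11.63 and 11.58 in TGF-β1 cultures. The knockout TGF-β1 arrays lay below all others, and wild type TGF-β1 lay below wild type vehicle by a narrow margin. Cdt1 fell by 0.21 ± 0.05 in wild type (adjusted p = 0.000849) and by 0.35 ± 0.05 in knockout cells (adjusted p = 4.5e-06). Within slide 1 alone the wild type difference of -0.16 did not pass (adjusted p = 0.108), and the interaction of -0.14 ± 0.06 did not pass (adjusted p = 0.0842), although it did under quantile normalization (-0.24) and normexp (-0.16). Gmnn, whose product geminin binds and inhibits CDT1, rose by 0.27 ± 0.04 and 0.33 ± 0.04, against the direction of Cdt1.

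The 6 members of the MCM helicase all rose in both genotypes, by 0.17 (Mcm6) to 0.38 (Mcm3) in wild type and by 0.32 (Mcm4) to 0.66 (Mcm3) in knockout cells. The 2 dimmer Mcm3 probes read 0.18 and 0.19 in wild type and 0.46 and 0.41 in knockout cells, and under quantile normalization Mcm6 was -0.01 in wild type cells and Mcm4 no longer passed in either genotype. The origin proteins Orc1, the largest subunit of the origin recognition complex (0.49 ± 0.06 and 0.66 ± 0.06), and Cdc6, its loading partner (0.30 ± 0.06 and 0.28 ± 0.06), rose, as did Tk1, thymidine kinase of the salvage pathway (0.37 ± 0.05 and 0.44 ± 0.05). Pcna, the sliding clamp of DNA polymerases, was the S phase gene without a call in either genotype, at -0.11 ± 0.05 (adjusted p = 0.0559) in wild type and -0.03 ± 0.05 in knockout cells. In wild type cells it passed as lower under quantile normalization (-0.31), normexp (-0.12) and median scaling (-0.12), within slide 2 (-0.20) and without vehicle replicate 2 (-0.15), and in knockout cells under quantile normalization (-0.43).

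Of the 24 G2 and mitotic genes, 23 rose in each genotype, with a median of 0.56 in wild type and 0.80 in knockout cells, and Cdc25b did not pass. Aurka, the Aurora A kinase of the spindle poles, read 11.49, 11.53, 11.50 and 11.48 in wild type vehicle and 12.43, 12.51, 12.58 and 12.56 in wild type TGF-β1 cultures. In knockout cells Aurka read 11.60, 11.68, 11.73 and 11.73 in vehicle and 13.22, 13.33, 13.39 and 13.22 in TGF-β1 cultures. No 2 groups overlapped. Aurka rose by 1.02 ± 0.05 in wild type (2.03-fold, adjusted p = 7.24e-11) and by 1.60 ± 0.05 in knockout cells (3.04-fold, adjusted p = 9.39e-14), the largest rise of the 50 genes there, with an interaction of 0.59 ± 0.07 (adjusted p = 2.95e-06).

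Plk1, the polo-like kinase of mitotic entry and exit, read 11.49, 11.50, 11.48 and 11.45 in wild type vehicle and 12.33, 12.54, 12.61 and 12.53 in wild type TGF-β1 cultures. In knockout cells Plk1 read 11.50, 11.59, 11.66 and 11.63 in vehicle and 12.88, 12.98, 13.10 and 12.91 in TGF-β1 cultures. The vehicle groups met at 11.50 and the TGF-β1 groups were separate. Its rise was 1.02 ± 0.06 in wild type and 1.37 ± 0.06 in knockout cells, and the interaction of 0.35 ± 0.08 (adjusted p = 0.00277) was 0.16 and did not pass under quantile normalization. Cdc25c, the phosphatase that activates CDK1, read 8.23, 8.40, 8.29 and 8.24 in wild type vehicle and 9.16, 9.13, 9.18 and 9.25 in wild type TGF-β1 cultures. In knockout cells Cdc25c read 8.51, 8.37, 8.34 and 8.39 in vehicle and 9.69, 9.62, 9.81 and 9.68 in TGF-β1 cultures. The vehicle groups overlapped, and the knockout TGF-β1 arrays were again the highest. Cdc25c rose by 0.89 ± 0.05 and 1.30 ± 0.05, an interaction of 0.41 ± 0.07 (adjusted p = 0.000267), whereas the related Cdc25b differed by -0.12 ± 0.06 and -0.10 ± 0.06 and passed in wild type cells only without TGF-β1 replicate 1. A dimmer second probe of Cdc25b read 0.19 in wild type cells, the 1 case in which probes of a gene differed in sign in that comparison.

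Cdk1, the kinase that drives entry into mitosis, read 9.29, 9.30, 9.35 and 9.27 in wild type vehicle and 10.00, 9.76, 9.68 and 9.88 in wild type TGF-β1 cultures. In knockout cells Cdk1 read 9.37, 9.34, 9.25 and 9.23 in vehicle and 10.49, 10.41, 10.72 and 10.38 in TGF-β1 cultures. The vehicle groups overlapped, and each TGF-β1 group was separate. Cdk1 rose by 0.53 ± 0.07 in wild type (1.44-fold) and by 1.20 ± 0.07 in knockout cells (2.30-fold), an interaction of 0.68 ± 0.11 (adjusted p = 6.69e-05) that was 0.51 within slide 1 and 0.84 within slide 2. Its cyclin partners differed from each other: Ccnb1 (cyclin B1) rose by 0.58 ± 0.06 and 1.15 ± 0.06, with an interaction of 0.57 ± 0.08, whereas Ccnb2 (cyclin B2) rose by 0.50 ± 0.05 and 0.49 ± 0.05, with an interaction of 0.00 ± 0.08 (adjusted p = 0.99). Ccna2 (cyclin A2) lay between them, at 0.53 ± 0.04 and 0.75 ± 0.04, by its brightest probe; a second probe of nearly the same signal (mean 10.91 against 11.02) read 0.86 and 1.19, so its place among the cyclins depends on the probe.

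The remaining mitotic genes rose in both genotypes to differing degrees. Kif20a, a kinesin of the central spindle, had the largest wild type rise of the 50 genes, 1.10 ± 0.05, and 1.22 ± 0.05 in knockout cells. Ube2c, the ubiquitin-conjugating enzyme of the anaphase-promoting complex, rose by 0.70 ± 0.06 and 1.29 ± 0.06, and Cdc20, an activator of that complex, by 0.89 ± 0.04 and 1.04 ± 0.04. Among the kinetochore genes, Cenpa, the centromeric histone H3 variant, rose by 0.73 ± 0.05 and 1.19 ± 0.05, Cenpe, a kinetochore motor, by 0.73 ± 0.06 and 1.15 ± 0.06, and Cenpf by 0.61 ± 0.06 and 0.67 ± 0.06. The spindle checkpoint kinase Bub1 rose by 0.67 ± 0.06 and 1.03 ± 0.06 and its relative Bub1b by 0.46 ± 0.05 and 0.54 ± 0.05. Of the chromosomal passenger genes, Birc5 (survivin) rose by 0.69 ± 0.06 and 0.86 ± 0.06 and Aurkb (Aurora B) by 0.27 ± 0.06 and 0.43 ± 0.06. Top2a, topoisomerase II alpha, which untangles sister chromatids, rose by 0.35 ± 0.05 and 0.73 ± 0.05, and Kif23, a cytokinesis kinesin, by 0.28 ± 0.05 and 0.60 ± 0.05. Espl1 (separase) rose by 0.43 ± 0.05 and 0.54 ± 0.05, Ccnf (cyclin F) by 0.53 ± 0.06 and 0.47 ± 0.06, and Kif11, the bipolar spindle kinesin, by 0.42 ± 0.07 and 0.41 ± 0.07. Mki67, the Ki-67 gene used as a proliferation marker, rose by 0.43 ± 0.05 and 0.48 ± 0.05, near the lower end of the group in both genotypes.

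Averaged over the genes of a role on each array, the same order appeared. The mean of the 24 G2 and mitotic genes, relative to the wild type vehicle mean, was 0.57 to 0.62 with TGF-β1 in wild type cells. In knockout cells it was 0.03 to 0.07 with vehicle and 0.85 to 1.00 with TGF-β1. The mean of the 15 S phase genes was 0.28 to 0.32, 0.04 to 0.09 and 0.50 to 0.63 in the same order. The TGF-β1 arrays of both genotypes stood above all vehicle arrays in both roles, and the third knockout TGF-β1 array was the highest in all 4 roles. Without that array the counts of rising genes in knockout cells stayed within 42 to 43, as they did without any other single array.

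**Figure D3:**
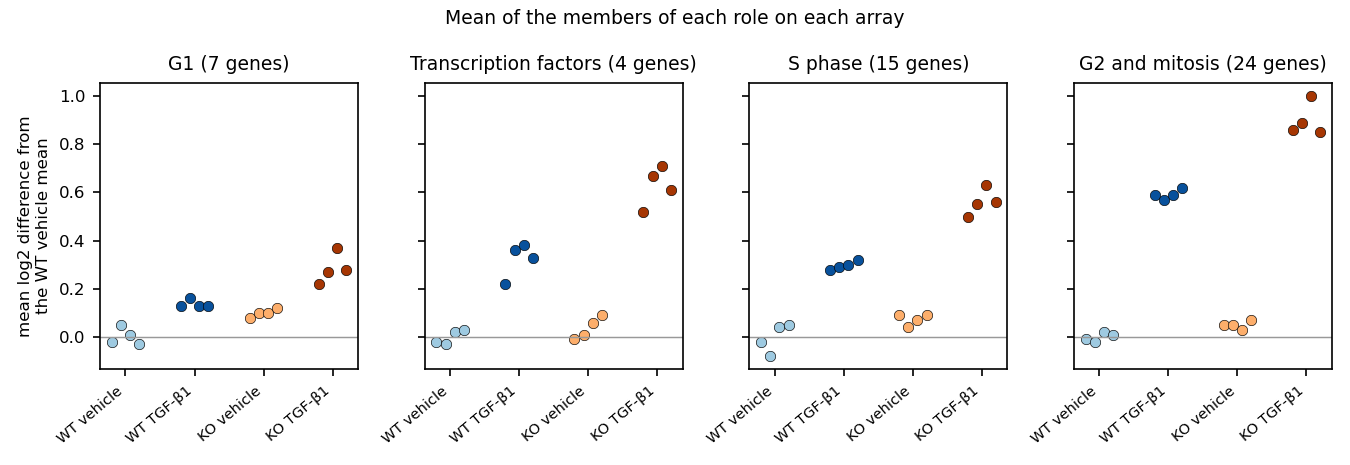
Mean log2 difference from the wild type vehicle mean over the genes of each role, 1 point for each of the 16 arrays. The knockout TGF-β1 arrays are highest in every panel, at 0.85 to 1.00 for G2 and mitosis, where wild type cultures given TGF-β1 read 0.57 to 0.62.

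Without TGF-β1 few of the genes differed between the genotypes. In vehicle cultures 5 of 50 genes were higher in knockout cells and none was lower by limma's adjusted p. At the same threshold 7.06% of all genes tested were higher and 6.16% lower, so the share of higher genes was near the background. The median was 0.07 (0.03 over all genes). At an unadjusted p under 0.05 from limma the counts were 14 and 3, for which no share of all genes is given here. The 5 were Ccne1 (0.26 ± 0.06, adjusted p = 0.0078), Orc1 (0.20 ± 0.06, adjusted p = 0.0358), Aurka (0.19 ± 0.05, adjusted p = 0.0173), Rrm2 (0.18 ± 0.04, adjusted p = 0.00667) and Cdc20 (0.13 ± 0.04, adjusted p = 0.0443). A dimmer second probe read 0.03 for Cdc20 and 0.24 for Orc1. With the slide in the fit the count was 9, and for this count too no share of all genes is given. On slide 1 alone it was 0 (4 at an unadjusted p under 0.05) and on slide 2 alone it was 2. It was 2 without knockout vehicle replicate 3 or without replicate 4, and 3 without wild type vehicle replicate 3; Ccne1 and Rrm2 passed without any single array.

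Under TGF-β1, 36 of 50 genes were higher in knockout than in wild type cells and Ccnd1 and Cdt1 were lower, with a median of 0.26; over all genes 39.7% were higher and 30.5% lower, with a median of 0.06. By role the genes higher in knockout cells were 5 of 7 in G1, 2 of 4 among the factors, 11 of 15 in S phase and 18 of 24 in G2 and mitosis. The widest gaps were those of Rrm2 (0.80 ± 0.04, 1.74-fold), Mybl2 (0.78 ± 0.09, 1.71-fold), Aurka (0.77 ± 0.05, 1.71-fold) and Tyms (0.73 ± 0.05, 1.66-fold), followed by Cdk1 and Ube2c (0.67 each) and Ccnb1 (0.62). Ccnd1 was lower by -0.54 ± 0.06 and Cdt1 by -0.28 ± 0.05. Mki67 did not pass (0.06 ± 0.05, adjusted p = 0.287), and neither did Ccnb2 (0.03 ± 0.05), Bub1b (-0.06 ± 0.05), Kif11 (-0.07 ± 0.07), Pcna (0.09 ± 0.05), Gmnn (0.07 ± 0.04), E2f1 (0.04 ± 0.05) or Cdk6 (0.00 ± 0.11). The calls of Cdk2, Cdk4, Cdc6, Tk1 and Cenpf rested on single arrays. Cdk2 lost its call without any TGF-β1 array but wild type replicate 1, and Cdk4 without knockout replicate 3 or 4 or wild type replicate 1 or 2. Cdc6 lost it without knockout replicate 2, 3 or 4 or wild type replicate 1 or 2, and Tk1 without knockout replicate 2, 3 or 4 or wild type replicate 1 or 4. Cenpf lost it without knockout replicate 3 or wild type replicate 2. In this comparison the dimmer second probes read 0.03 for Tk1 (0.14 by the brightest), 0.09 for Cenpf and 0.12 for Cdc6. The dimmer Cdk4 probes read 0.19 and 0.15. The count of higher genes was 37 with the slide in the fit, 29 from slide 1 alone and 34 from slide 2 alone. It was 27 under quantile normalization, where Cdk4 (-0.16), Mki67 (-0.12), Ccnb2 (-0.13) and Pcna (-0.12) were lower in knockout cells. The share of all genes under that scaling is not given here.

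**Figure D4:**
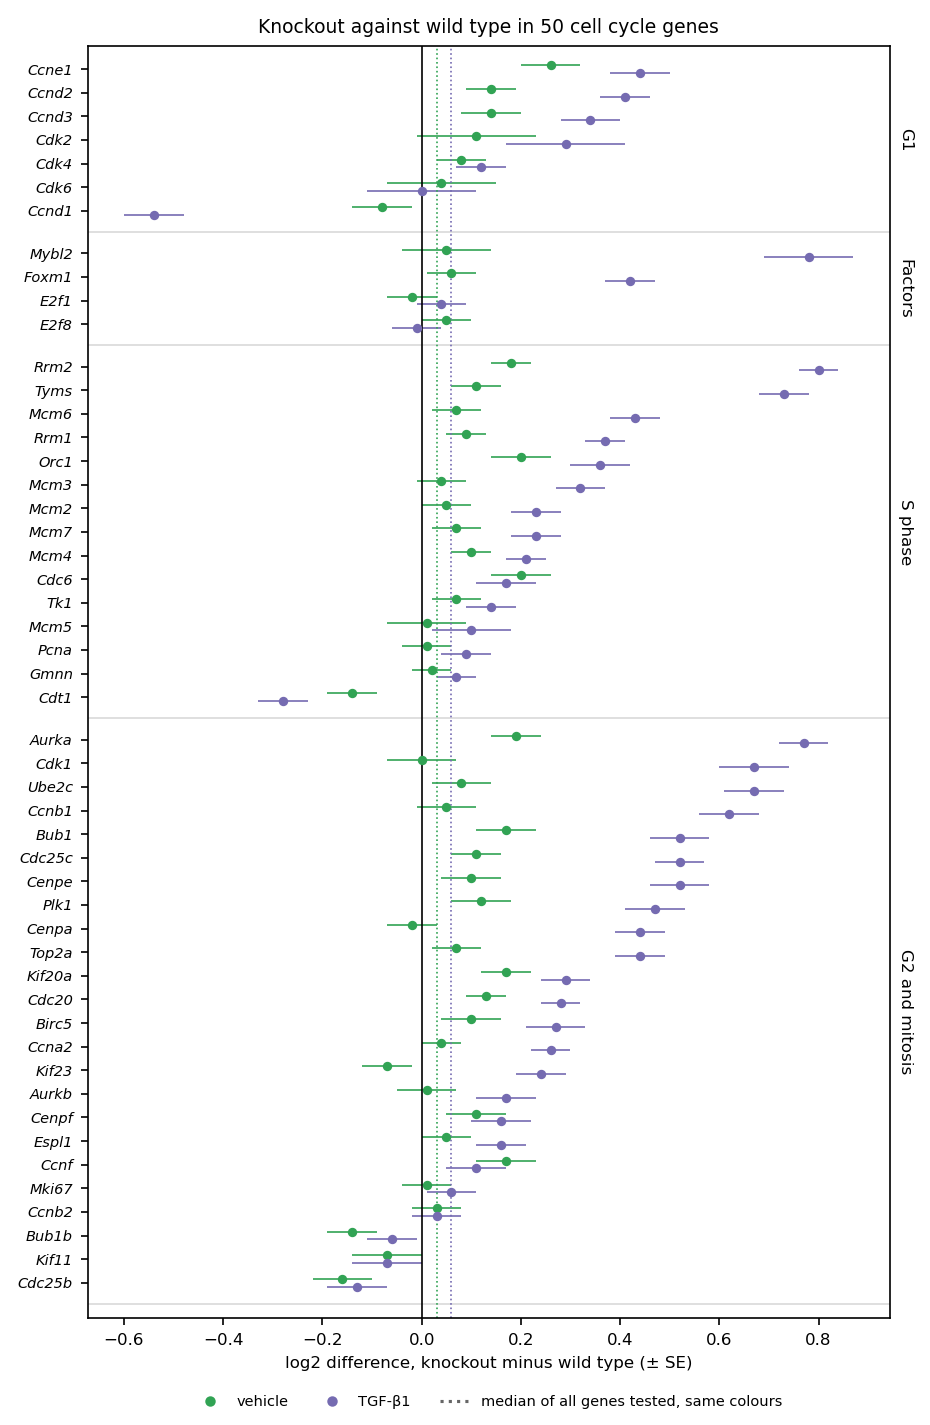
Knockout minus wild type (log2 difference, points, with SE as bars) for each of the 50 genes in vehicle (green) and TGF-β1 (purple) cultures, by role; dotted lines mark the median of all genes tested, 0.03 and 0.06. In vehicle cultures the points lie between -0.16 and 0.26, and under TGF-β1 they spread from -0.54 to 0.80.

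The knockout TGF-β1 arrays were all above the other 12 arrays for 31 of the 50 genes and all below them for 2, Ccnd1 and Cdt1; over all genes tested the shares were 33.1% and 22.1%. The 31 comprised 3 of 7 G1 genes, 2 of 4 factors, 9 of 15 S phase genes and 17 of 24 G2 and mitotic genes.

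The difference between the responses was tested as the interaction, the TGF-β1 response of knockout cells minus that of wild type cells. It passed for 23 of 50 genes, 22 with a higher and 1 with a lower value in knockout cells, against 31.9% and 26.5% of all genes; the median was 0.17, and 0.05 over all genes. The 22 were Ccnd2, both Mybl2 and Foxm1, 6 S phase genes (Tyms, Rrm2, Mcm6, Mcm3, Rrm1 and Mcm2) and 13 G2 and mitotic genes, from 0.15 ± 0.06 for Cdc20 to 0.68 ± 0.11 for Cdk1. The 11 G2 and mitotic genes without a call included Mki67 (0.05 ± 0.07), Ccnb2 (0.00 ± 0.08), Kif11 (-0.01 ± 0.10), Cenpf (0.06 ± 0.08) and Ccnf (-0.06 ± 0.08), so genes of 1 role did not share a single ratio between the genotypes. The calls of Mcm2 (adjusted p = 0.0478) and Cdc20 (adjusted p = 0.0336) depended on single arrays. That of Mcm2 held only without wild type vehicle replicate 1 or knockout TGF-β1 replicate 1 or 4, and was lost without any other array. That of Cdc20 was lost without knockout TGF-β1 replicate 3 or 4, knockout vehicle replicate 2 or 3, wild type TGF-β1 replicate 1 or 3, or wild type vehicle replicate 2. With the slide in the fit 24 genes passed as higher, against 12 from slide 1 alone and 21 from slide 2 alone.

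Scaling sets part of this comparison. Quantile normalization moved the median of all genes in knockout cells from 0.10 to -0.01, and the share of interaction calls with a higher value in knockout cells from 54.6% to 43.6%. Under it the interaction passed with a higher value for 15 genes and with a lower value for 4, and the median over the 50 genes was 0.06 (-0.02 over all genes). The shares of all genes passing under quantile normalization are not given here, so no count under it is set against a background. Mybl2 (0.61), Cdk1 (0.59), Tyms (0.42), Rrm2 (0.41) and Aurka (0.39) kept their direction and call, while Ccnd2 (-0.01), Cdc20 (-0.03) and Cdk4 (-0.22) changed sign. Ccnd1 was -0.54, further from 0 than with the 75th percentile.

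**Figure D5:**
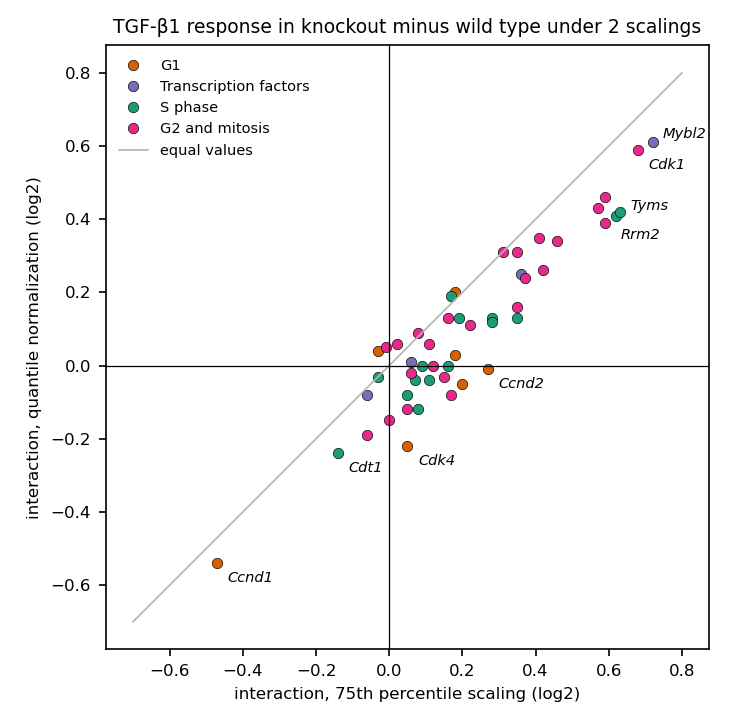
Interaction (TGF-β1 response in knockout minus wild type, log2) of the 50 genes with the 75th percentile scaling (horizontal axis) and with quantile normalization (vertical axis), coloured by role; the line marks equal values. Most points lie below the line, and those of Mybl2, Cdk1, Tyms, Rrm2 and Aurka stay well above 0 on both axes.

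The partners of these genes are described by counts and medians, to be read against the shares of all genes given above: 41.3% risen and 27.3% fallen in wild type cells, 46.6% and 35.9% in knockout cells, and 31.9% higher and 26.5% lower in the interaction. Of 72 further mitotic genes (kinetochore, spindle, condensin and cytokinesis proteins), 64 rose and 1 fell in wild type cells (median 0.50) and 67 rose in knockout cells (median 0.76), and the interaction was higher in knockout cells for 32. Examples are Prc1, a bundler of midzone microtubules (0.79 ± 0.04 and 1.21 ± 0.04), Anln, the contractile ring protein anillin (0.96 ± 0.05 and 1.47 ± 0.05), Racgap1, a cytokinesis regulator (0.89 ± 0.04 and 1.25 ± 0.04), and Spc24, an NDC80 complex subunit (0.86 ± 0.04 and 1.07 ± 0.04). Stil, a centriole duplication factor, had the smallest adjusted p for the interaction in this list (0.97 ± 0.11), and Pttg1 (securin) was the gene that fell in wild type cells (-0.11 ± 0.04). In vehicle cultures 8 of the 72 were higher in knockout cells and none was lower, against 7.06% and 6.16% of all genes. The median was 0.09 (0.03 over all genes), and Ckap2, a spindle protein, stood at 0.32 ± 0.04. Under TGF-β1, where 39.7% of all genes were higher, 59 were higher and 1, the centromere gene Cenpm (-0.34 ± 0.08), was lower.

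Of 50 replication fork and origin partners, 33 rose and 3 fell in wild type cells (median 0.23) and 40 rose and 4 fell in knockout cells (median 0.33); the interaction was higher for 23 and lower for 4, or 15 and 6 under quantile normalization. Rpa1, the large subunit of the single-strand binding complex, rose by 1.12 ± 0.04 in knockout cells with an interaction of 0.72 ± 0.06, and Dut, the dUTPase that keeps uracil out of DNA, by 0.98 ± 0.04 with an interaction of 0.64 ± 0.06. Prim2, a primase subunit, rose by 1.07 ± 0.06 in knockout cells, and Chaf1a, a chromatin assembly subunit, by 0.41 ± 0.04 in wild type and 0.82 ± 0.04 in knockout cells. Pold3, a DNA polymerase delta subunit, fell in both genotypes (-0.40 ± 0.06 and -0.78 ± 0.06), as did the replication kinase Cdc7 (-0.19 ± 0.05 and -0.22 ± 0.05). The nuclease Dna2 fell in wild type cells (-0.34 ± 0.12), and Orc5 (-0.35 ± 0.09) and the fork protection gene Timeless (-0.19 ± 0.06) fell in knockout cells. In vehicle cultures none of the 50 passed limma's test (3 were higher at an unadjusted p under 0.05). Gins4 (-0.04) and Rfc3 (-0.01), counted as risen in knockout cells, changed sign under quantile normalization, as did Pkmyt1 (-0.02) of the next list.

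Of 21 repair and checkpoint genes that act on replicating DNA, 18 rose in wild type (median 0.34) and 19 in knockout cells (median 0.44), and none fell by limma, at an unadjusted p under 0.05 either. The largest interaction was that of Wee1, the kinase that restrains CDK1, which rose by 1.40 ± 0.05 in knockout cells (interaction 0.95 ± 0.07, adjusted p = 5.96e-08). Blm, a helicase that acts in DNA repair, rose by 0.46 ± 0.05 in wild type and 0.95 ± 0.05 in knockout cells. Eme1, a nuclease subunit, was the 1 gene of this list with a lower interaction (-0.29 ± 0.11). Of 16 genes of the anaphase-promoting complex and its regulators, 13 rose in each genotype and in knockout cells Anapc13 (-0.33 ± 0.05) and Anapc2 (-0.13 ± 0.04) fell; Anapc16 rose by 0.56 ± 0.03 and 1.00 ± 0.03. This complex depended on the scaling: under quantile normalization 9 rose and 3 fell in wild type and 10 rose and 4 fell in knockout cells, with Anapc5 at -0.14 and -0.32.

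The genes of the retinoblastoma, E2F and DREAM proteins were mixed: of 17, 8 rose and 3 fell in wild type cells (median 0.09) and 9 rose and 5 fell in knockout cells (median 0.24), near the shares of all genes. E2f3, an activating E2F, rose by 0.91 ± 0.09 in wild type and 1.51 ± 0.09 in knockout cells, and E2f7, a repressing one, by 0.29 ± 0.04 and 0.46 ± 0.04, while E2f2, another activator, fell (-0.24 ± 0.05 and -0.57 ± 0.05). Rbl2, encoding p130, the pocket protein of DREAM in resting cells, fell (-0.35 ± 0.08 and -0.92 ± 0.08), as did Tfdp2, an E2F dimer partner (-0.17 ± 0.07 and -0.49 ± 0.07). Lin37 (-0.15 ± 0.05) and Lin52 (-0.16 ± 0.05), subunits of the MuvB core, fell in knockout cells.

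The CDK inhibitors did not move as 1 group: 5 of 7 rose and 2 fell in each genotype, or 4 and 2 in wild type and 4 and 3 in knockout cells under quantile normalization, where Cdkn1b was -0.09 in knockout cells. Cdkn1c, encoding p57, read 13.47 ± 0.04 in wild type vehicle, 8.97 ± 0.03 in wild type TGF-β1, 13.14 ± 0.08 in knockout vehicle and 7.24 ± 0.11 in knockout TGF-β1 cultures (SD, n = 4), a fall of -4.49 ± 0.05 and -5.90 ± 0.05. Cdkn2b, encoding p15, a known TGF-β target in epithelial cells, rose by 0.12 in wild type and 1.59 ± 0.04 in knockout cells, and Cdkn2a, encoding p16 and p19ARF, by 0.64 ± 0.06 and 1.64 ± 0.06. Cdkn1a (p21) rose by 0.49 ± 0.06 and 0.95, Cdkn1b (p27) by 0.25 and 0.13, and Cdkn2d (p19INK4D) by 0.52 ± 0.05 and 0.45, while Cdkn2c (p18) fell by 0.14 ± 0.05 and 0.84 ± 0.05. Of 22 growth response genes that act upstream of the cyclins, 12 rose and 7 fell in wild type and 13 rose and 9 fell in knockout cells, somewhat above the shares of all genes in both directions. Under quantile normalization the counts were 10 and 8, and 10 and 9, and Max and Mxi1 changed sign in knockout cells. Myc, a driver of cell growth, rose by 0.71 ± 0.06 and 1.62 ± 0.06, whereas Mycn, its relative, fell (-0.96 ± 0.07 and -2.22 ± 0.07). The immediate early genes Fos (-2.61 ± 0.08) and Egr1 (-1.53 ± 0.05) fell in knockout cells but not in wild type cells. Their interactions were -2.84 ± 0.11 and -1.78 ± 0.06. In the same list the interaction was higher for Fosl1 (1.46 ± 0.12) and Junb (0.28 ± 0.10) and lower for Jun (-0.26 ± 0.10). Of the 22 genes it was higher for 11 and lower for 7.

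Promoter sequences of 41 of the 50 genes were matched by symbol in RefSeq (GRCm38.p6), each from 250 bases before to 50 after the start site. They were searched on both strands for CCAAT, for 2 forms of the cell cycle homology region that MuvB complexes read (TTTGAA and TTCGAA), and for 3 E2F-type octamers (TTTCCCGC, TTTGGCGC and TTCCCGCC, of which the first and the last can overlap). CCAAT was found in 19 of 20 matched G2 and mitotic genes and 9 of 13 S phase genes, against 37.4% of all 32851 windows. TTTGAA was found in 15 of 20 G2 and mitotic genes and 1 of 13 S phase genes, against 17.9% of all windows, and all 15 also held CCAAT, a pair found in 6.95% of all windows. TTCGAA was found in 4 of 20 and 1 of 13 (1.56% of all windows). An E2F-type octamer was found in 7 of 13 S phase genes and 0 of 20 G2 and mitotic genes, against 3.21% of all windows. A match is a run of letters, not a site shown to be bound in these cells.

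The 150 bases before the start site of 6 genes are shown, 5′ to 3′ on the gene's own strand, with the matched letters (on either strand) in capitals. Cdk1 and Ube2c are shown as G2 and mitotic genes with a large interaction (0.68 and 0.59), and Cdc20 and Kif11 as ones with a small or no interaction (0.15 and -0.01) whose windows hold the same motifs; Mcm6 and Rrm1 show the E2F-type octamers of S phase genes.
Cdk1, chr10:69352913-69353062, minus strand: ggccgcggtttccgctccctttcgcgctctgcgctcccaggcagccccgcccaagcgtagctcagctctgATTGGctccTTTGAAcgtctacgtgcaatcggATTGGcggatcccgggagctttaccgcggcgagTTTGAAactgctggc
Ube2c, chr2:164769779-164769928, plus strand: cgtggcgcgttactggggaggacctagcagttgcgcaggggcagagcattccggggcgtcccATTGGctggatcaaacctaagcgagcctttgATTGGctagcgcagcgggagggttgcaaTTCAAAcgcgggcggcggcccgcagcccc
Cdc20, chr4:118437344-118437493, minus strand: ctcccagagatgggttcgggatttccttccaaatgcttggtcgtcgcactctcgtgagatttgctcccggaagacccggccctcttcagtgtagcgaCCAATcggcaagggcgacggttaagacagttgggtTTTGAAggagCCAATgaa
Kif11, chr19:37376232-37376381, plus strand: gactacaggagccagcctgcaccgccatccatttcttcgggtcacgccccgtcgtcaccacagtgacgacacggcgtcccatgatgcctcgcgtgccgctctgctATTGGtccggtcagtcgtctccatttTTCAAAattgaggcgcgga
Mcm6, chr1:128359706-128359855, minus strand: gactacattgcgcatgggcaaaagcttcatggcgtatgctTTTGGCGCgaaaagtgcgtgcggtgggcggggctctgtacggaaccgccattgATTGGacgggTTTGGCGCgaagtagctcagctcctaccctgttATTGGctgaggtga
Rrm1, chr7:102441545-102441694, plus strand: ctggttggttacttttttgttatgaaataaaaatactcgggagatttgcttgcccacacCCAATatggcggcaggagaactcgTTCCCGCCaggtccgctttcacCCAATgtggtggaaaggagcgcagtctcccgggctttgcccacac
In these 4 mitotic promoters a CCAAT (or ATTGG, its reverse) stands upstream of a TTTGAA (or TTCAAA). The 4 were picked with both motifs in their windows, and a relation between motifs and interaction was not tested.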

How the data were processed

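One-colour Agilent arrays (Cy3) of 16 cultures were analysed from the deposited Feature Extraction files (version 11.0.1.1, per the file headers). The deposited processed signal is an intensity per spot, background-subtracted by the scanner software per the file headers, and the flags for outlier, saturated and well above background spots are other columns of the same deposited files. No annotation or processing beyond this is given in the sources used here. Outlier-flagged spots were left out, and 27 probes left with no spot on at least 1 array were dropped. No spot was saturated, spots of a probe were averaged on the log2 scale, and each array was shifted so that its 75th percentile was equal. A probe was kept if any group had it well above background on each of its 4 arrays (33888 of 56605 probes; 31308 to 35457 were well above background per array). Probes were named by their transcript accession through RefSeq (GRCm38.p6); 22709 kept probes were named, and the brightest kept probe stood for a gene, giving 15394 genes. For 21 of the 50 genes more than 1 of the 75 kept probes was available.

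All tests were limma (3.58.1, R 4.3.3) fitted on 16 arrays with 1 coefficient per group, two-sided, with Benjamini-Hochberg adjustment over all genes; the number of arrays limits the precision. The fit was tested on simulated data. Replicate numbers were not treated as pairs, since no label ties them to a mouse or day. The correlations of same-numbered deviations ranged from -0.034 to 0.218, and those of differently numbered ones from -0.235 to 0.135. Whether same-numbered arrays are paired is not known. Alternatives were quantile normalization, normexp on the median signal (the files hold no mean signal), median scaling, other filters, the mean of all probes, the slide and replicate blocks, each slide alone, only the groups compared, and each array left out.

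The authors' deposited value table, on a log2 scale, was an alternative; its column medians were 6.595, 6.598, 6.615 and 6.609 in wild type vehicle, 6.473, 6.466, 6.493 and 6.469 in wild type TGF-β1, 6.586, 6.593, 6.567 and 6.58 in knockout vehicle and 6.391, 6.38, 6.388 and 6.381 in knockout TGF-β1. Across the probes of each array its values correlated with the scanner values at 0.999 to 0.99992, which does not describe differences between arrays. Its normalization is unknown, and it names 15 of the 50 genes among 5257.

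The genes and lists were chosen with earlier results of these data known. Values on all arrays are given for the 3 genes of each role with the largest difference in any comparison of 2 groups, for genes called against most of their role and for the 4 largest interactions; of each further list, up to 4 genes with the smallest adjusted p in a comparison and genes called against most of the list are named (not in every comparison), Stil, Ckap2 and Wee1 among them, and all CDK inhibitors.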

Additional observations from a re-analysis of the deposited data

Results flagged for a closer look

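The response to TGF-β1 differed between the genotypes, by limma's interaction test, for 23 of the 50 genes (22 higher and 1 lower in knockout cells) and for 6 of the 7 CDK inhibitors (3 and 3). Over all genes tested 31.9% were higher and 26.5% lower, so the 23 are no larger a share than among all genes. In knockout minus wild type order, the G1 genes were Ccnd1 (-0.47) and Ccnd2 (0.27), and the factors were Mybl2 (0.72) and Foxm1 (0.36). The S phase genes were Tyms (0.63), Rrm2 (0.62), Mcm6 (0.35), Mcm3 (0.28), Rrm1 (0.28) and Mcm2 (0.19). The mitotic kinases and cyclins were Cdk1 (0.68), Aurka (0.59), Ccnb1 (0.57), Cdc25c (0.41), Plk1 (0.35), Bub1 (0.35) and Ccna2 (0.22), and the other mitotic genes were Ube2c (0.59), Cenpa (0.46), Cenpe (0.42), Top2a (0.37), Kif23 (0.31) and Cdc20 (0.15). The inhibitors were Cdkn2b (1.47), Cdkn2a (1.01), Cdkn1a (0.46), Cdkn1b (-0.13), Cdkn2c (-0.70) and Cdkn1c (-1.40). The Cdkn2a value is that of 1 gene symbol and does not separate its p16 and p19ARF transcripts.

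In 10 of 228 groups of 4 arrays, 1 array stood far from the other 3, and chance gives about 5% of groups. These were Ccnd2 (14.79) and Bub1b (8.30) on wild type vehicle array 2, Birc5 (13.53) on wild type TGF-β1 array 1, and Cdk6 (7.31) on knockout vehicle array 4. Knockout vehicle array 1 stood apart for Cdkn1a (11.76) and Cdkn2a (9.55). On the knockout TGF-β1 arrays they were Ccnd3 (14.08, array 1), Mcm2 (10.21, array 3), Kif23 (8.80, array 4) and Cdkn2a (11.13, array 4).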

How the results depend on the processing

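With each array left out, the members counted as higher ranged from 41 to 42 (TGF-β1, wild type), 42 to 43 (TGF-β1, knockout), 31 to 36 (genotype under TGF-β1), 20 to 25 (interaction) and 2 to 7 (genotype in vehicle); those counted as lower ranged from 1 to 2 for the interaction and from 0 to 1 in vehicle. A difference that passed in neither fit was counted as unchanged. Under quantile normalization the members lower were 4 (TGF-β1, knockout), 1 (vehicle), 6 (genotype under TGF-β1) and 4 (interaction), and the signs turned for Ccnd3 (-0.04 and -0.09) and Mcm6 (-0.01) in the TGF-β1 responses, for Cdk4 (-0.16 in knockout cells, -0.16 between genotypes under TGF-β1 and -0.22 in the interaction), for Mki67 (-0.12), Ccnb2 (-0.13) and Pcna (-0.12) between genotypes under TGF-β1, and for Ccnd2 (-0.01) and Cdc20 (-0.03) in the interaction; the cause was not tested. The share of calls that were higher moved from 56.6% to 46.8% between genotypes under TGF-β1. Normexp gave 2 members lower in the interaction. The authors' value table holds fewer genes: of 15 members, 13 were higher and 1 lower (TGF-β1, wild type), 14 and 1 (TGF-β1, knockout), 1 higher (vehicle), 13 and 1 (genotype under TGF-β1) and 10 higher (interaction); of 5257 genes the counts were 2019 and 2357, 2271 and 2570, 451 higher, 1985 and 2228, and 1840 and 1985, and the share of calls that were higher was 46.1% against 60.2% (TGF-β1, wild type) and 38.9% against 53.4% (vehicle). In vehicle cultures the members higher were 3 with no filter and 3 with only the groups compared, which also gave 1 lower, as did probes above background on all arrays. Slide as a block gave 9 higher and 1 lower there, with no share of all genes given. Within slide 1 alone, with fewer arrays, 1 member was lower in wild type TGF-β1, 0 were higher in vehicle (59 genes higher and 138 lower) and 12 were higher in the interaction (2780 genes); within slide 2, 2 were higher in vehicle (379 genes). The replicate block gave 11 higher and 1 lower in vehicle, also without a share of all genes, and moved no other count of members by over 1.5 times. Whether the numbers pair the arrays is not known: 4 of 16 arrays correlated best with their own number in every other group. Signal over background did not limit the 50 genes, all of which were well above it on every array.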
